A study of Mus musculus with 6 samples.

Results

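Mitosis and cytokinesis genes were followed in RNA-seq of mouse acute myeloid leukemia cells with and without *Phf6*. The set held 58 of the 54532 genes in the deposited table and was taken by name: mitotic cyclins and kinases, and genes of the spindle, the kinetochore, condensin and cytokinesis. The rule uses names and no expression value, and the names were picked with earlier results of these data known. All 58 passed the filter on low counts, and the lowest count of any of them in any library was 167. The leukemia was driven by RUNX1-ETO9a (RE9a), a truncated fusion of the transcription factor RUNX1 with ETO that was delivered to Lin- fetal liver cells on a retrovirus that also carries GFP. *WT Phf6,RE9a* cells carried the floxed allele alone (*Phf6* fl/y), and *VC Phf6,RE9a* cells carried it together with *Vav1-Cre* (*Vav1-Cre;Phf6* fl/y), a Cre that acts in blood cells in general and not in leukemia cells alone. Both groups thus shared the floxed allele, the RE9a-GFP virus, male donors and serial transplantation into male recipients, and GFP+ cells were sorted from the bone marrow. Each group had 3 libraries, named here WT replicates 1, 2 and 3 and VC replicates 11, 12 and 13. Neither strain, age at sampling nor transplant passage was given for these libraries, and nothing said that each came from a separate mouse, so p-values measure the spread between these libraries, which may be technical.

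The library totals ran from 15675358 to 16817994 counts. *Phf6*, the targeted gene, had 67.8, 56.1 and 69.1 CPM in WT replicates 1, 2 and 3 and 22.9, 18.3 and 19.7 CPM in VC replicates 11, 12 and 13 (log2 fold change -1.66, SE 0.13, adjusted p = 9.32e-05). CPM are read counts scaled to one common library size after TMM normalization, fold changes are *VC Phf6,RE9a* over *WT Phf6,RE9a*, and adjusted p-values are Benjamini-Hochberg values of edgeR's quasi-likelihood test over the 14169 genes tested. A gene was called at an adjusted p under 0.05, and "rose", "fell", "higher" and "lower" are used of called genes. The 8 leukocyte and myeloid progenitor markers of the labelled cell type summed to 3380 to 4822 CPM in WT and 1452 to 1660 CPM in VC libraries. Of these 8, *Kit* (2686, 2697 and 1876 against 217, 352 and 251 CPM) and *Myb* were among 3 that fell (37.5%), and 2 rose (25%), while *Runx1* was not called. Over all genes tested 22.7% fell and 21.5% rose. All VC libraries of *Kit*, the stem cell factor receptor of progenitors and mast cells, lay far under all WT libraries.

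Mitosis begins when CDK1, bound to cyclins A and B, is freed of inhibitory phosphates by CDC25 phosphatases and, with Aurora A and PLK1, drives the cell into chromosome condensation and spindle assembly. Kinetochores then attach chromosomes to spindle microtubules, and a checkpoint holds the anaphase-promoting complex (APC/C) until every attachment is made. The APC/C with CDC20 then marks securin and cyclin B for destruction, which frees separase to cut cohesin, and a central spindle and contractile ring divide the cell. Most of these genes are transcribed late in the cell cycle. They are held down in quiescence by the DREAM complex and switched on by B-MYB and FOXM1 with the MuvB core, through promoter elements called CHR and through CCAAT boxes bound by NF-Y. In leukemia their RNA is widely read as a sign of dividing cells.

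The promoters of 6 genes are shown because these genes include high, middle and negative fold changes and because a CHR element, a CCAAT box or both lie within each stretch. *Cdc25b* and *Espl1* had the highest fold changes of the set, *Cdk1*, *Kif11* and *Top2a* stood near its middle, and *Cenpf* fell. Each stretch is the 150 bases before the RefSeq start (GRCm38.p6), 5′ to 3′ along the gene's own strand. The stretches lie at chr2:131186798-131186947 (plus strand) for *Cdc25b*, chr15:102296143-102296292 (plus) for *Espl1*, chr10:69352913-69353062 (minus) for *Cdk1*, chr19:37376232-37376381 (plus) for *Kif11*, chr11:99024190-99024339 (minus) for *Top2a* and chr1:189688087-189688236 (minus) for *Cenpf*. Capitals mark the CHR element, searched as TTTGAA on either strand (TTTGAA or TTCAAA), and the NF-Y box, searched as CCAAT on either strand (CCAAT or ATTGG). A match of letters is not evidence that a factor binds there.
Cdc25b: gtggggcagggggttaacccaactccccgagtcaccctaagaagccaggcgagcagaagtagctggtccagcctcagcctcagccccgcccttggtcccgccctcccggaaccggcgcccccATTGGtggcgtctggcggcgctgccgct
Espl1: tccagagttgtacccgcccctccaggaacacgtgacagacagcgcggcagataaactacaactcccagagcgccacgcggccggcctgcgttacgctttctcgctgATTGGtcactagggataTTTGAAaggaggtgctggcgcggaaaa
Cdk1: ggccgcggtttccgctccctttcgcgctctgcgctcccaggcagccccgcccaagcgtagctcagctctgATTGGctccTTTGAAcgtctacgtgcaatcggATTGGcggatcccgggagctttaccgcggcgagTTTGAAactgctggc
Kif11: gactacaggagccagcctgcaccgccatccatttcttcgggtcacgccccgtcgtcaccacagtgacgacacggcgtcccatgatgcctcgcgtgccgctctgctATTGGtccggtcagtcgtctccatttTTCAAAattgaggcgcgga
Top2a: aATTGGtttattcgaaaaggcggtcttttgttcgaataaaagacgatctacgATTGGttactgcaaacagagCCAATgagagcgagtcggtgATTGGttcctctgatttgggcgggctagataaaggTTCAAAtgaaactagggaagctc
Cenpf: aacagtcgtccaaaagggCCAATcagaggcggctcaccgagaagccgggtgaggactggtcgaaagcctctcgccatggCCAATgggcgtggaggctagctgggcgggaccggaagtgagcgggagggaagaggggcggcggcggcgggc
In *Espl1* the NF-Y box began 44 bases and the CHR element 27 bases before the start. In *Cdk1* both elements occurred as 2 copies, with the CHR elements 71 and 15 bases before the start. *Kif11* held 1 of each, and *Top2a* held 4 NF-Y boxes ahead of a CHR element that began 23 bases before the start. The *Cdc25b* stretch held an NF-Y box 28 bases before the start and no CHR letters, and that of *Cenpf* held 2 NF-Y boxes, its CHR match lying just past the start and so outside the printed bases.

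RefSeq promoters of 300 bases (250 before to 50 after the start) were at hand for 47 of the 58 genes, as 50 promoters because some genes had more than 1 start. The others, *Aurkb*, *Ccna2*, *Cdc25c*, *Cdca2*, *Dlgap5*, *Foxm1*, *Incenp*, *Kif20a*, *Smc4*, *Spc24* and *Tpx2*, were not in the table used. The CHR letters occurred in 39 of the 50 promoters (78%), against 5878 of 32851 mouse promoters of the same length (17.9%) and 12.3% of those of the genes tested. NF-Y boxes occurred in 74% of the mitosis promoters against 37.4% of all, and both together in 64% against 6.95%. The CHR matches clustered near the start, as the plot of motif positions shows. A match within 50 bases on either side of the start was found in 35 of the 50 promoters (70%) and in 4.94% of all promoters. It was found in 20.2% of promoters of the other mitosis genes and 8.51% of those of DNA replication genes. The share with CHR letters was 27 of 33 (81.8%) among promoters of genes that rose and 12 of 17 (70.6%) among the rest, *Cenpf* included. The 2 shares are given as a description, with no test, and genes with more than 1 promoter count more than once.

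**Figure D1:**
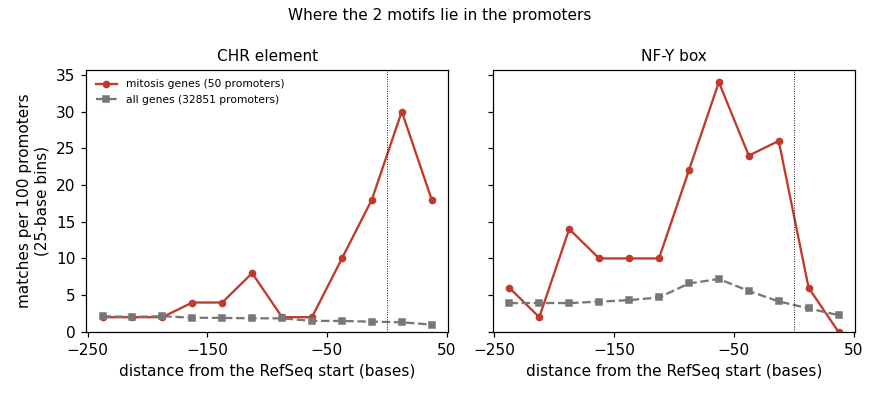
Matches of the CHR element (left) and the NF-Y box (right) per 100 promoters, in bins of 25 bases, against distance in bases from the RefSeq start (dotted line). Red circles are the 50 promoters of the mitosis and cytokinesis genes and grey squares all 32851 mouse promoters. The red CHR line peaks around the start and the red NF-Y line ahead of it, while the grey lines stay low.

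Mitosis and cytokinesis genes were mostly higher in *VC Phf6,RE9a* cells. Of the 58 genes 36 rose (62.1%) and 1 fell (*Cenpf*), while of all genes tested 21.5% rose and 22.7% fell. The median log2 fold change was 0.55 over the 58 genes and 0.013 over all genes tested. Most changes were modest: 21 of the 36 reached 1.5-fold, and 3 reached 2-fold, namely *Cdc25b*, *Espl1* and *Aurka*. The 3 VC libraries lay above the 3 WT libraries without overlap for 41 genes and under them for 2 (*Cenpf* and *Cdca2*), where 28.9% and 28.4% of all genes tested did so. Among the 21 genes not called, 19 had a positive fold change, and 9 had an adjusted p between 0.05 and 0.1. The libraries were made from sorted populations, so that more dividing cells and more of these transcripts per cell cannot be told apart. From its own cell cycle measurement, the paper reported that *Phf6* loss held GFP+ marrow cells of this model in G0 (quiescence). How that measurement relates to these RNA levels was not tested. All 10 erythroid and all 11 granulocyte and monocyte markers rose as well, and 7 of 8 mast cell and basophil markers fell. Their part in the levels of the mitosis genes was not tested.

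**Figure D2:**
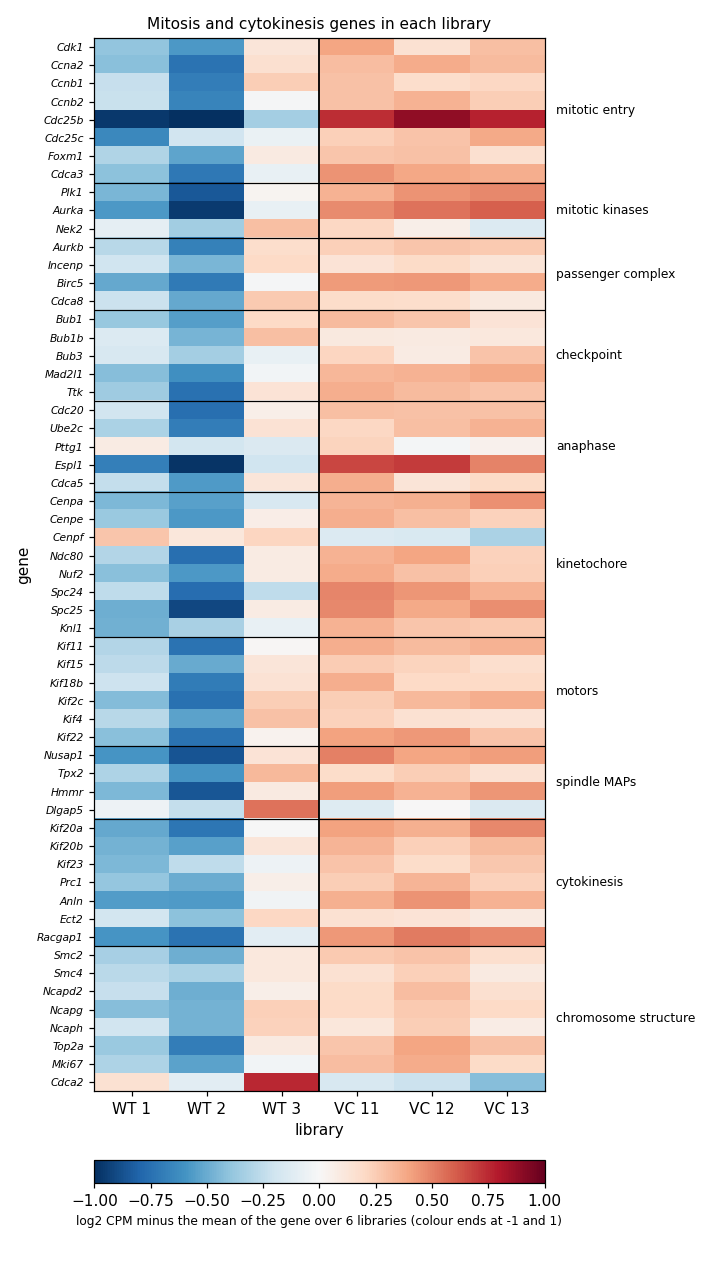
Level of each of the 58 genes in each library, as log2 CPM minus the gene's mean over the 6 libraries (colour, ending at -1 and 1), with genes in rows grouped by role and libraries in columns. The VC columns are mostly red and WT replicates 1 and 2 blue. WT replicate 3 is mostly near white or pale red, but pale blue for some genes, *Cdc25b*, *Espl1* and *Spc24* among them. *Cenpf*, *Dlgap5* and *Cdca2* differ from the rest.

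One WT library stood apart from the other WT libraries in these genes. WT replicate 3 had the highest CPM of the WT libraries for 56 of the 58 genes, and WT replicate 2 the lowest for 55. The CPM of the 58 genes summed to 5580, 4750 and 7405 in WT replicates 1, 2 and 3, and to 9007, 9238 and 8789 in VC replicates 11, 12 and 13. The VC libraries thus lay close together and above every WT library, and the WT libraries were spread out. The median ratio of WT replicate 3 to the mean of the other WT libraries was 1.49 over the 58 genes (from 0.937 to 1.82) and 0.987 over all genes tested with a count there. The median coefficient of variation of the 58 genes was 26.0% among WT and 4.205% among VC libraries, against 15.95% and 9.47% over all genes. This library was singled out by the values of these same genes. Its removal therefore raises most of their fold changes by construction and adds no support. Without WT replicate 3, 53 genes rose, 1 fell and 4 were not called (*Nek2*, *Pttg1*, *Dlgap5* and *Cdca2*), at a background of 21.3% of genes higher, and the median log2 fold change was 0.71. By role, those that rose without it were 8 of 8 in mitotic entry, 2 of 3 mitotic kinases, 4 of 4 in the passenger complex, 5 of 5 in the checkpoint, 4 of 5 in anaphase, 7 of 8 in the kinetochore, 6 of 6 motors, 3 of 4 spindle proteins, 7 of 7 in cytokinesis and 7 of 8 in chromosome structure. Differences between roles in the share called were not tested. Leaving out another library lowered the count: 28 genes rose without WT replicate 2, 19 without WT replicate 1, 16 without VC replicate 11, 16 without VC replicate 12 and 20 without VC replicate 13, with backgrounds of 19.5%, 16.8%, 14.9%, 15% and 16.3% of genes higher. The median log2 fold change without WT replicate 2, the lowest WT library in most of these genes, was 0.40. A group of 2 libraries enters such fits. The genes called in all 14 alternatives tried numbered 11: *Cdc25b*, *Espl1*, *Aurka*, *Racgap1*, *Spc24*, *Birc5*, *Kif20a*, *Cdca3*, *Cenpa*, *Anln* and *Mad2l1*. The other 25 that rose lost the call under at least 1 alternative, and all 36 kept their direction under every one.

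**Figure D3:**
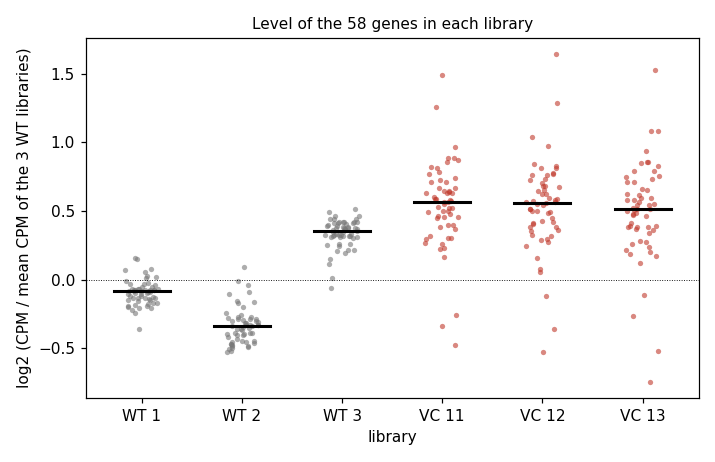
Each point is one of the 58 genes in one library, plotted as log2 of its CPM over its mean CPM in the 3 WT libraries, with black bars at the median. The median of WT replicate 3 lies between those of the other WT libraries and the VC libraries, and the VC medians are close to each other.

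The counts by role that follow stand against the 21.5% of all genes tested that rose, and the passenger complex (25%) was nearest to that share. Among genes of mitotic entry 7 of 8 rose, and the exception was *Ccnb1*. *Cdc25b*, the phosphatase that starts CDK1 activation at the centrosome (GRCm38 chr2:131186949-131198497, as are the other gene positions), had 292, 268 and 449.8 CPM in WT replicates 1, 2 and 3 and 948, 1052 and 973 CPM in VC replicates 11, 12 and 13. Every VC library had more than 2 times the CPM of the highest WT library (log2 fold change 1.56, SE 0.20, adjusted p = 6.74e-04), and it was also the most abundant transcript of the set per length, at 89.7 FPKM in WT and 263 FPKM in VC. *Cdk1*, the mitotic kinase itself, had 59.3, 52.6 and 85.0 CPM in the WT libraries and 103, 86.8 and 96.3 CPM in the VC libraries (log2 fold change 0.54, SE 0.17, adjusted p = 0.0394). The lowest VC library of *Cdk1* was barely above the highest WT library. *Ccna2* (cyclin A2; log2 fold change 0.61, SE 0.20, adjusted p = 0.0425), *Ccnb2* (cyclin B2; 0.57, SE 0.15, adjusted p = 0.0189) and *Cdc25c*, the second mitotic CDC25 phosphatase (0.58, SE 0.17, adjusted p = 0.0249), rose by similar amounts. *Cdca3*, which helps to degrade the CDK1 inhibitor WEE1, rose more (0.77, SE 0.15, adjusted p = 0.00512). *Foxm1*, the transcription factor that drives many of these genes, rose the least of the 7 (0.47, SE 0.15, adjusted p = 0.0382). *Ccnb1*, cyclin B1, the main partner of CDK1, had 91.7, 66.4 and 127 CPM in WT and 131, 122 and 124 CPM in VC, so that WT replicate 3 lay within the range of the VC libraries (log2 fold change 0.40, SE 0.21, adjusted p = 0.154). Without WT replicate 3, the highest WT library of *Ccnb1*, its log2 fold change was 0.66 with an adjusted p of 0.0111, a rise that this choice favours.

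Of the mitotic kinases *Aurka* and *Plk1* rose and *Nek2* was not called. *Aurka*, Aurora A, which matures centrosomes and builds the spindle (chr2:172356190-172370535), had 36.4, 27.8 and 51.3 CPM in WT and 75.2, 78.9 and 81.8 CPM in VC libraries (log2 fold change 1.03, SE 0.20, adjusted p = 0.00486). *Plk1*, Polo-like kinase 1, which acts from mitotic entry to cytokinesis, had 47.3, 36.2 and 66.5 CPM in WT and 82.8, 88.9 and 90.7 CPM in VC (log2 fold change 0.81, SE 0.20, adjusted p = 0.0132). For both genes all VC libraries lay above all WT libraries. *Nek2*, which splits the centrosomes, had 43.0, 35.9 and 56.3 CPM in WT and 52.8, 47.6 and 41.6 CPM in VC, with WT replicate 3 the highest library of all (log2 fold change 0.07, SE 0.17, adjusted p = 0.770). The fold change of *Nek2* turned its sign with the libraries used, so no direction is given for it.

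The chromosomal passenger complex corrects faulty attachments and later acts in cytokinesis, and 1 of its 4 genes was called. *Birc5*, survivin, which brings the complex to the centromere, had 46.9, 40.9 and 66.3 CPM in WT and 90.1, 90.5 and 86.6 CPM in VC (log2 fold change 0.79, SE 0.17, adjusted p = 0.00706). The other genes were *Aurkb*, the kinase of the complex (log2 fold change 0.47, SE 0.19, adjusted p = 0.0766), *Cdca8*, borealin (0.27, SE 0.18, adjusted p = 0.251), and *Incenp*, its scaffold (0.28, SE 0.16, adjusted p = 0.183). Without WT replicate 3, the highest WT library for each of them, all 4 rose, with log2 fold changes of 1.01, 0.71, 0.50 and 0.47. That choice of library favours such calls.

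Among genes of the spindle assembly checkpoint 3 of 5 rose. *Mad2l1*, the MAD2 protein that blocks CDC20, had 51.2, 44.7 and 67.4 CPM in WT and 86.4, 87.5 and 89.2 CPM in VC (log2 fold change 0.69, SE 0.15, adjusted p = 0.00707), with no overlap. *Ttk*, the MPS1 kinase that starts checkpoint signalling (log2 fold change 0.60, SE 0.21, adjusted p = 0.0467), and *Bub3*, which docks the BUB proteins at the kinetochore (0.38, SE 0.099, adjusted p = 0.0159), rose too. The kinase *Bub1* (0.45, SE 0.18, adjusted p = 0.0823) and *Bub1b*, BUBR1 (0.16, SE 0.17, adjusted p = 0.479), were not called. *Bub1b* had 102, 81.5 and 139 CPM in WT and 121, 119.7 and 121 CPM in VC, so that the VC libraries lay between WT replicates 1 and 3.

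In the step from metaphase to anaphase 2 of 5 genes rose. *Espl1*, separase, the protease that opens cohesin (chr15:102296266-102324357), had 84.7, 69.3 and 118 CPM in WT and 217, 221 and 193 CPM in VC (log2 fold change 1.21, SE 0.18, adjusted p = 0.00167). Its lowest VC library was well above its highest WT library. *Cdc20*, the activator of the APC/C, had 95.2, 64.5 and 113 CPM in WT and 133, 133 and 133 CPM in VC (log2 fold change 0.55, SE 0.18, adjusted p = 0.0419). *Pttg1*, securin, which holds separase inactive, had 30.4, 25.4 and 26.1 CPM in WT and 33.7, 28.4 and 29.8 CPM in VC and was not called (log2 fold change 0.16, SE 0.12, adjusted p = 0.309). The fold changes of separase and securin were thus far apart, at 1.21 and 0.16 on the log2 scale, and that difference itself was not tested. *Ube2c*, the ubiquitin-conjugating enzyme of the APC/C (0.53, SE 0.19, adjusted p = 0.0533), and *Cdca5*, sororin, which guards cohesin (0.43, SE 0.17, adjusted p = 0.0779), did not overlap between the groups but missed the threshold.

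The kinetochore and centromere genes all changed: 7 of 8 rose and *Cenpf* fell. All genes of the NDC80 complex, the microtubule hook of the outer kinetochore, rose: *Ndc80* (log2 fold change 0.61, SE 0.20, adjusted p = 0.0376), *Nuf2* (0.58, SE 0.17, adjusted p = 0.0245), *Spc24* (0.83, SE 0.15, adjusted p = 0.00375) and *Spc25* (0.82, SE 0.23, adjusted p = 0.0227). *Spc24* had 24.4, 17.2 and 24.5 CPM in WT and 40.8, 39.5 and 37.0 CPM in VC, with all VC libraries well above all WT libraries. *Cenpa*, the histone H3 variant that defines the centromere, had 103, 96.8 and 126 CPM in WT and 178, 179.7 and 193 CPM in VC (log2 fold change 0.76, SE 0.11, adjusted p = 0.00148). *Knl1*, the scaffold of the outer kinetochore (0.58, SE 0.11, adjusted p = 0.00455), and *Cenpe*, a kinesin that moves chromosomes to the metaphase plate (0.56, SE 0.16, adjusted p = 0.0214), rose by about the median of the set.

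*Cenpf*, a large protein of the nuclear matrix and outer kinetochore that binds microtubules (chr1:189640606-189688086), had 129, 115 and 124 CPM in WT replicates 1, 2 and 3 and 97.2, 95.7 and 85.7 CPM in VC replicates 11, 12 and 13. All VC libraries lay under all WT libraries, and WT replicate 3 was not the highest WT library here (log2 fold change -0.40, SE 0.088, adjusted p = 0.00789). Under total-count scaling, an alternative chosen after the data were seen, the log2 fold change was -0.25 with an adjusted p of 0.0565, so the call of *Cenpf* was lost with that scaling, which put 28.6% of all genes higher, 17.5% lower, and 44 of the 58 genes higher. *Cdca2*, which brings protein phosphatase 1 to anaphase chromosomes, also had its VC libraries under its WT libraries, with 33.0, 27.5 and 49.9 CPM in WT and 26.5, 25.5 and 22.0 CPM in VC, but was not called (log2 fold change -0.58, SE 0.22, adjusted p = 0.0612). WT replicate 3 held by far the highest value of *Cdca2*, and the log2 fold change was -0.30 without it. *Cdca2* was called lower by DESeq2 (adjusted p = 0.0342), and by edgeR with no filter (adjusted p = 0.0394) and without WT replicate 2 (adjusted p = 0.0166). *Dlgap5*, a spindle protein that stabilises microtubules near the chromosomes, also had a negative fold change, with 47.9, 42.1 and 72.4 CPM in WT and 45.3, 49.8 and 44.9 CPM in VC (log2 fold change -0.21, SE 0.19, adjusted p = 0.400). Its value rests on WT replicate 3, without which the log2 fold change was 0.044.

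**Figure D4:**
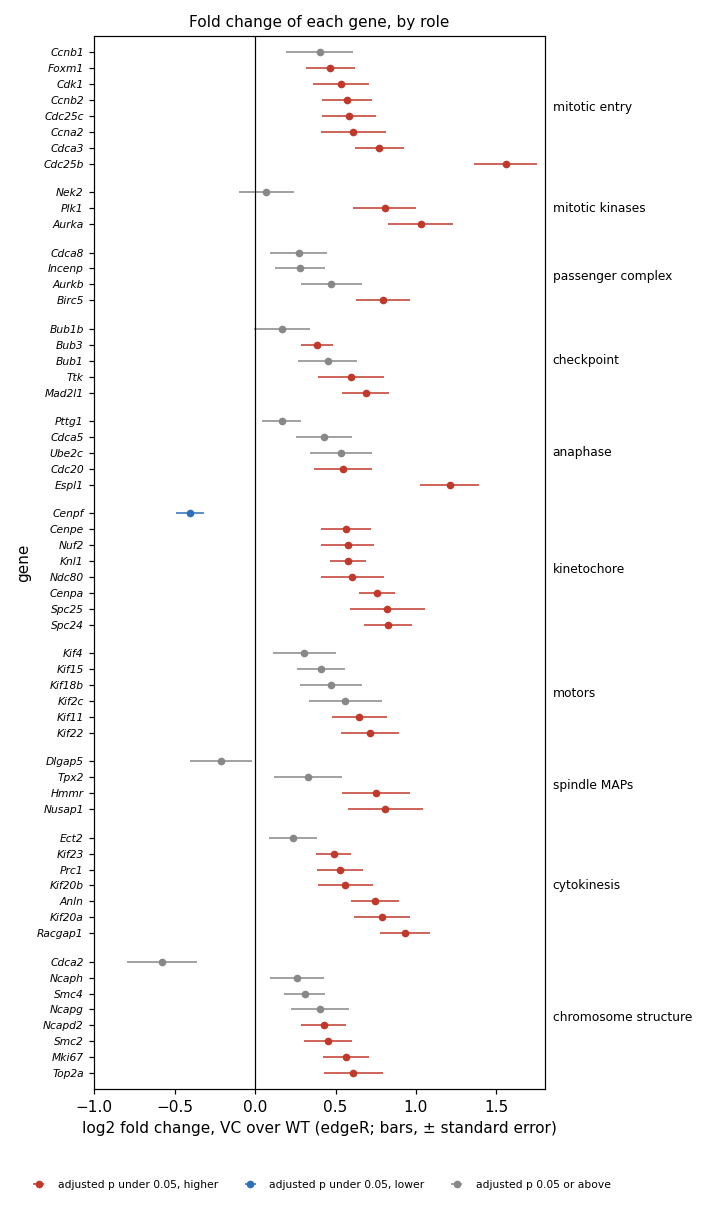
Log2 fold change of each of the 58 genes, *VC Phf6,RE9a* over *WT Phf6,RE9a*, grouped by role, with bars of ± 1 standard error from edgeR. Red points are the 36 genes that rose, the blue point is *Cenpf*, which fell, and grey points were not called. *Cdc25b*, *Espl1* and *Aurka* lie above 1.

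Of 6 spindle and chromosome motors 2 rose. *Kif11*, the kinesin-5 that pushes spindle poles apart, had 169, 124 and 208 CPM in WT and 265, 257 and 262 CPM in VC (log2 fold change 0.65, SE 0.17, adjusted p = 0.0175). *Kif22*, a chromosome-bound kinesin, rose with it (log2 fold change 0.71, SE 0.18, adjusted p = 0.0146). *Kif15*, a kinesin that shares the task of *Kif11* (0.41, SE 0.15, adjusted p = 0.0583), *Kif18b*, which trims astral microtubules (0.47, SE 0.19, adjusted p = 0.0828), *Kif2c*, a microtubule depolymerase (0.56, SE 0.23, adjusted p = 0.0808), and *Kif4*, a chromokinesin (0.31, SE 0.19, adjusted p = 0.237), had positive fold changes and were not called. Among 4 spindle proteins, *Nusap1*, which bundles microtubules (0.81, SE 0.23, adjusted p = 0.0239), and *Hmmr*, which acts at spindle poles (0.75, SE 0.21, adjusted p = 0.0223), rose. *Tpx2*, the activator of Aurora A, had 124, 102 and 192 CPM in WT and 174, 182 and 169.6 CPM in VC and was not called (log2 fold change 0.33, SE 0.21, adjusted p = 0.244). Its WT replicate 3 lay above every VC library, while for *Aurka* every VC library lay above WT replicate 3.

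Of 7 cytokinesis genes 6 rose. *Racgap1*, which with the kinesin *Kif23* forms the centralspindlin complex of the central spindle, had 107, 97.02 and 150.03 CPM in WT and 218, 233 and 226 CPM in VC (log2 fold change 0.93, SE 0.16, adjusted p = 0.00259). Its VC libraries lay close together, well above WT replicate 3. *Kif23* itself rose less (log2 fold change 0.49, SE 0.11, adjusted p = 0.00914). *Kif20a*, the kinesin that carries the passenger complex to the midzone (0.79, SE 0.18, adjusted p = 0.00854), *Kif20b* (0.56, SE 0.17, adjusted p = 0.0308), *Prc1*, which cross-links midzone microtubules (0.53, SE 0.14, adjusted p = 0.0203), and *Anln*, anillin, the scaffold of the contractile ring (0.75, SE 0.15, adjusted p = 0.00548), rose as well. *Ect2*, the exchange factor that turns on RhoA at the cleavage site, had 50.9, 43.6 and 66.7 CPM in WT and 64.4, 63.7 and 61.7 CPM in VC and was not called (log2 fold change 0.23, SE 0.15, adjusted p = 0.242).

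Of 8 genes of chromosome structure 4 rose. *Mki67*, the Ki-67 protein that coats mitotic chromosomes and marks dividing cells, had 848, 725 and 1029 CPM in WT and 1300.3, 1355 and 1196 CPM in VC (log2 fold change 0.57, SE 0.14, adjusted p = 0.0147). *Top2a*, the topoisomerase that untangles sister chromatids, had 402, 321 and 554 CPM in WT and 629.8, 684 and 637 CPM in VC (log2 fold change 0.61, SE 0.19, adjusted p = 0.0303). In both genes every VC library was above every WT library. Condensin folds chromosomes, and of its genes in the set the core subunit *Smc2* (0.45, SE 0.15, adjusted p = 0.0403) and the condensin I subunit *Ncapd2* (0.43, SE 0.14, adjusted p = 0.0394) rose. The core subunit *Smc4* (0.31, SE 0.13, adjusted p = 0.0814) and the condensin I subunits *Ncapg* (0.40, SE 0.18, adjusted p = 0.110) and *Ncaph* (0.26, SE 0.17, adjusted p = 0.248) had positive fold changes and were not called.

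Per length, the 58 genes had a median of 13.3 FPKM in *WT Phf6,RE9a* and 19.2 FPKM in *VC Phf6,RE9a* cells. *Cdc25b* and *Mki67* (85.6 FPKM in WT and 126 FPKM in VC) were the most abundant, and *Ndc80* was the least abundant in WT at 4.50 FPKM. In VC the least abundant was *Cdca2* at 4.26 FPKM. Exons of 17 of the 58 genes overlap another gene in GENCODE M21, and 7 share more than 10% of their exon bases with a gene on the opposite strand: *Kif20a* (29.3%), *Ube2c* (22.8%), *Kif4* (15.1%), *Ncapg* (13.4%), *Cdc25c* (12.7%), *Ccna2* (12.5%) and *Prc1* (11.1%). For *Kif20a* and *Cdc25c* the deposited gene lengths, 3796 and 1941 bases, differ from the 4338 and 4919 exon bases of GENCODE M21. Their shares may therefore not hold for the exons that were counted. Whether the counting used strand was not given in the sources used here, so the values of these 7 genes could include reads of their neighbours.

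Other genes of mitosis outside the set also rose more often than they fell. Of 118 such genes, a list that also holds 18 regulators of cell cycle transcription, 47 rose (39.8%) and 9 fell (7.63%), with a median log2 fold change of 0.27. Of 49 DNA replication genes 23 rose (46.9%) and 1 fell (*Rfc2*), with a median of 0.43. Over all genes tested 21.5% rose and 22.7% fell, and no test of the difference between the lists was made. Among the regulators of cell cycle transcription within the list of 118 (the DREAM and MuvB complexes, E2F and RB proteins and B-MYB), 7 of 18 rose (38.9%) and 2 fell (11.1%). *E2f2*, an activating E2F factor, had 56.1, 51.4 and 69.8 CPM in WT and 166, 184 and 165 CPM in VC (log2 fold change 1.54, SE 0.13, adjusted p = 1.11e-04). *Tfdp2*, a dimer partner of E2F factors, rose from a low level (1.53, SE 0.26, adjusted p = 0.00246). *Rb1*, the retinoblastoma protein that restrains E2F factors, had 148, 124 and 137 CPM in WT and 66.1, 73.2 and 60.1 CPM in VC and fell (log2 fold change -1.04, SE 0.11, adjusted p = 2.92e-04). The VC libraries of *Rb1* were all under the lowest WT library.

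The counts of the smaller sublists follow, where 21.5% of all genes tested rose and 22.7% fell, and no difference between them was tested. In the constitutive centromere and outer kinetochore 12 of 26 (46.2%) rose. By smallest p these were headed by *Cenpm* (log2 fold change 1.68, SE 0.15, adjusted p = 1.74e-04), *Nsl1* (0.88, SE 0.16, adjusted p = 0.00395) and *Cenpw* (0.79, SE 0.16, adjusted p = 0.00520). Of 17 APC/C genes 3 rose (17.6%) and 1 fell, a share of higher genes near that over all genes. The 3 with the smallest p were the subunits *Anapc5* (0.41, SE 0.086, adjusted p = 0.00631) and *Anapc11* (0.32, SE 0.079, adjusted p = 0.0133) and the APC/C inhibitor *Fbxo5* (0.69, SE 0.18, adjusted p = 0.0165). Of 14 cohesin genes 4 rose (28.6%) and 3 fell (21.4%), also near the shares over all genes. *Rad21*, the cohesin subunit that separase cuts, had 382, 279 and 402 CPM in WT and 642, 640.2 and 685 CPM in VC (log2 fold change 0.89, SE 0.14, adjusted p = 0.00218). *Wapl*, which releases cohesin from chromosomes (-0.80, SE 0.085, adjusted p = 3.40e-04), and *Esco2*, which acetylates cohesin in S phase (-0.80, SE 0.18, adjusted p = 0.0102), fell. *Rad21* and *Espl1*, the substrate and the protease, thus both rose.

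The shares here stand against the same 21.5% of all genes tested higher and 22.7% lower. Of the 3 condensin II genes *Ncaph2* (0.92, SE 0.086, adjusted p = 1.91e-04) and *Ncapd3* (0.30, SE 0.10, adjusted p = 0.0463) rose (66.7%), and *Ncapg2* was not called (0.29, SE 0.11, adjusted p = 0.0616). Of 7 checkpoint adaptors 3 rose (42.9%) and 1 fell (14.3%), with *Kntc1* (0.89, SE 0.14, adjusted p = 0.00219) and *Zwilch* (0.62, SE 0.16, adjusted p = 0.0154), which bring dynein to kinetochores, higher and *Mad2l1bp*, which takes MAD2 out of the checkpoint complex, lower (-0.49, SE 0.12, adjusted p = 0.0112). Of 17 centrosome and spindle pole genes 6 rose (35.3%) and 1 fell (5.88%). *Cep152* (0.42, SE 0.11, adjusted p = 0.0156) and *Sass6* (0.66, SE 0.18, adjusted p = 0.0212), which build new centrioles, rose, and *Cep55*, which acts at the abscission site of cytokinesis, fell (-0.99, SE 0.29, adjusted p = 0.0263). *Cep55* had 9.93, 9.91 and 18.7 CPM in WT and 6.61, 5.54 and 7.25 CPM in VC, with no overlap and a low level in every library. Of 16 other mitotic regulators 10 rose (62.5%) and 1 fell (6.25%). Those with the smallest p were *Gtse1* (0.96, SE 0.18, adjusted p = 0.00424), *Troap* (0.95, SE 0.17, adjusted p = 0.00329) and the CDK1-inhibiting kinase *Pkmyt1* (0.61, SE 0.12, adjusted p = 0.00518). In DNA replication, the clamp loader subunits went apart: *Rfc2* fell (-1.05, SE 0.11, adjusted p = 3.22e-04) and *Rfc4* rose (0.95, SE 0.13, adjusted p = 9.51e-04). *Mcm10*, which starts unwinding at origins, rose too (0.57, SE 0.12, adjusted p = 0.00711).

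Markers of maturing and other blood cells also differed between the groups, some lists higher and 1 mostly lower in VC. Over all genes tested 21.5% rose and 22.7% fell. All 10 erythroid markers rose, and their summed CPM ran from 1745 to 2509 in WT and from 6212 to 7189 in VC libraries. The most abundant were the globins *Hbb-bs* (1539.9, 967 and 1264 against 2456, 2485 and 2169 CPM) and *Hba-a1* (323, 213 and 412 against 1528, 1751 and 1582 CPM), and *Ermap* (234, 247 and 333 against 916, 939 and 943 CPM). All 11 markers of maturing granulocytes and monocytes rose, and their sum ran from 161 to 479 CPM in WT, highest in WT replicate 3, and from 978 to 3553 CPM in VC. *S100a9*, *Ngp* and *S100a8* led this list, with 44.8, 35.3 and 110.1 against 942, 568 and 241 CPM for *S100a9*. Within the VC libraries the sum was 3553 CPM in replicate 11, 2273 CPM in replicate 12 and 978 CPM in replicate 13. The summed mitosis genes had 8789 to 9238 CPM in these libraries, and in WT both sums were highest in replicate 3. How the sums relate was not tested.

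Of 8 mast cell and basophil markers 7 fell (87.5%, against 22.7% of all genes tested). The sum of the 8 ran from 13006 to 19601 CPM in WT, lowest in WT replicate 3, and from 2072 to 2664 CPM in VC. *Cpa3* had 6886, 8183 and 5179 CPM in WT and 158, 390.4 and 274 CPM in VC, and *Cma1* and *Tpsb2* fell with it. Of 7 macrophage markers tested 2 rose (28.6%, against 21.5% of all genes tested), *Vcam1* among them, while *Csf1r* and *C1qa* were not called, and the sum was 18.8 to 30.4 CPM in WT and 36.7 to 49.3 CPM in VC. Of B cell markers, *Pax5* had 0, 0 and 0.363 CPM in WT and 6.67, 6.41 and 1.19 CPM in VC. *Cd79b* had 0.390, 0 and 0.363 CPM in WT and 4.37, 6.12 and 2.38 CPM in VC. Both were called higher from a level at or near 0. They passed the filter on low counts through the VC libraries alone, so the direction of a call was set beforehand and adds no support. Of 8 T and NK cell markers only 2, *Lck* and *Nkg7*, were tested, and both rose. The others did not pass the filter on low counts, *Cd8a*, next in level, among them. The whole list summed to 2.44 to 3.77 CPM in WT and 9.39 to 14.3 CPM in VC. Genes this low can pass the filter through the VC libraries alone, so these calls carry little weight.

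**Figure D5:**
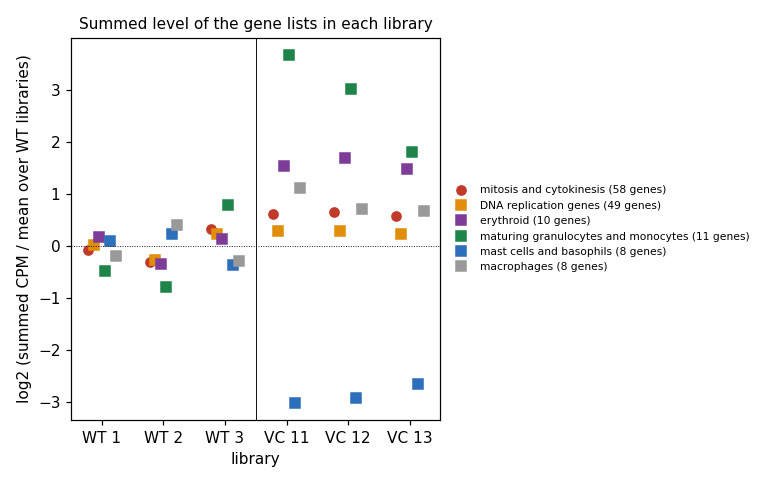
Summed CPM of each gene list in each library, as log2 of the sum over its mean in the 3 WT libraries. Red circles are the 58 mitosis and cytokinesis genes and squares the other lists. Of the lists plotted, granulocyte and monocyte markers and then erythroid markers lie highest in the VC libraries, mast cell and basophil markers lowest, and WT replicate 3 is above the other WT libraries for mitosis genes, DNA replication genes and granulocyte and monocyte markers.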

How the data were processed

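RNA from sorted GFP+ bone marrow cells was taken up in Trizol and made into TruSeq libraries. The authors deposited 1 table with raw counts per gene, which were not normalized, and FPKM, which equal the counts divided by gene length and scaled library size. The submitters' processing notes name Bowtie 0.12.0 and mm8, with no role given. The coordinates in the table are those of GRCm38: start and end of 55 of the 58 genes equal GENCODE M21. Counting tool and strandedness were not given in the sources used here. Deposited columns of the authors' own comparison (group means, log2 fold changes, p-values and adjusted p-values) were not used.

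Counts were tested with edgeR 4.0.16 in R 4.3.3 (filterByExpr, TMM, quasi-likelihood test, Benjamini-Hochberg adjustment), VC against WT with no covariate, and 14169 of 54532 genes were tested. Standard errors (SE) of log2 fold changes were derived from the F statistics. Scripts were tested on simulated data. Alternatives were DESeq2 1.42.0, limma 3.58.1 on log2(FPKM + 1), other scaling, filters and thresholds, and each library left out. Total-count scaling was chosen after the data were seen. Promoters are from RefSeq (GRCm38.p6), and 46 of the 50 used start within 50 bases of a GENCODE start on the same strand.

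The members and all gene lists were chosen with earlier results of these data known. Named were *Phf6*, the 58 genes, in each other sublist the 3 tested genes with the smallest p, and in each marker list the 3 genes with the highest mean CPM. The B cell marker list is given by 2 of its genes, and its summed result is not reported here.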

Additional observations from a re-analysis of the deposited data

How the results depend on the processing

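The higher direction of the median held under every alternative run. The median log2 fold change of the mitosis genes ran from 0.40 to 0.71 when 1 library was left out, and was 0.69 under total-count scaling, which was chosen after the data were seen. That scaling moved the median of all genes from 0.013 to 0.16 and the calls from 3047 higher and 3213 lower to 4048 higher and 2474 lower, and gave 44 mitosis genes higher and 0 lower by edgeR. The count of mitosis genes higher was 13 at an adjusted p under 0.01, 21 at 1.5-fold or more, and 16 to 53 with 1 library left out. It was 35 to 37 with DESeq2, RLE size factors, no filter, a minimum of 10 counts and limma. The count lower was 2 with DESeq2, 2 with no filter, 0 at 1.5-fold or more, and 1 to 2 with 1 library left out. Over all genes, the stricter threshold of 0.01 left 1690 higher and 2110 lower. Other mitosis genes higher numbered 18 at that threshold, 27 at 1.5-fold or more and 24 to 64 with 1 library left out, and those lower 4, 5 and 6 to 9. DNA replication genes higher numbered 2, 8 and 7 to 39 under the same choices. With 1 library left out, the log2 fold change of *Nek2* ran from -0.080 to 0.26, that of *Bub1b* from -0.0095 to 0.38 and that of *Dlgap5* from -0.38 to 0.044. For *Nek2* it was -0.080 without WT replicate 2 and -0.0090 without VC replicate 11. Stricter thresholds leave fewer genes by construction; otherwise the cause was not tested. No paired analysis was possible because the groups share no replicate number. Depth was alike in all libraries, and 3 libraries a group limit the precision.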
